A study of Mus musculus with 48 samples.

Results

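E15.5 acinar cells and E15.5 endocrine progenitors are the exocrine and the endocrine branch of the same fetal mouse pancreas, taken at the same stage. The comparison used the 3 arrays whose labels name acinar cells and the 3 whose labels name endocrine progenitors, which are 6 of the 48 arrays and 2 of the 13 populations of the series. The labels give wild type, CD-1 background and pancreas for both groups, and the methods write the stage as E15. Per the methods, both populations came from pooled pancreata of embryos that carry a Neurog3-eGFP transgene, a green fluorescent reporter driven by the regulatory sequence of Neurog3, so the acinar cells share the reporter allele. Acinar cells were sorted as reporter-negative cells with high CD49f that carried CD133 and CD24. Endocrine progenitors were sorted as reporter-positive cells with low CD49f that carried CD133 and CD24. The fluorescent protein outlives Neurog3 transcription and also marks descendants of the progenitors, which limits the gate as a model of the progenitor alone. Per the methods, surface markers were combined with the reporter to collect Neurog3-positive cells without hormone. Neurog3 and Itga6, which encodes CD49f, were therefore part of the sort, and their levels are given as a description.

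Acinar cells are the enzyme-secreting cells of the exocrine pancreas. The bHLH factor PTF1A, with its partner RBPJL, binds the promoters of genes for digestive enzymes and keeps cells on the exocrine path, and GFI1 is a zinc finger repressor. Endocrine progenitors arise from the ductal trunk when NEUROG3, another bHLH factor, is switched on. NEUROG3 activates a cascade that includes Neurod1, Pax4, Insm1 and Nkx2-2, and the cells then leave the cell cycle and become alpha, beta, delta, PP or epsilon cells. Notch signalling between neighbouring cells restrains Neurog3 through the repressor HES1.

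The arrays measured 1 value per probe on a log2 scale, so a difference of 1 is a 2-fold difference. The medians of the 6 arrays ran from 6.58 to 6.75, and 49.1% to 51.1% of their probes were brighter than 100 in linear units (6.64 in log2). The 3 arrays of each population correlated at r from 0.977 to 0.993 over the tested probes, and arrays of different populations at 0.875 at most. A difference was called when the adjusted p was under 0.05 and its size reached 2-fold. Of 32078 probes above 100 in at least 1 of the 48 arrays, 8568 were called (26.7%), 4162 of them higher in acinar cells and 4406 higher in endocrine progenitors. With each gene standing by its brightest probe, 2125 of 14485 genes were higher in acinar cells (14.7%) and 2223 higher in endocrine progenitors (15.3%). Differences of at least 16-fold were more frequent on the endocrine side, with 216 genes against 90. For 67.0% of all tested genes the arrays of the groups did not overlap, so the absence of overlap alone marks no gene. The median difference over all tested genes was -0.01 (endocrine progenitors minus acinar cells). These shares are the background against which the gene groups below were read. In sorted bulk samples, fewer cells of a type and less RNA per cell cannot be told apart. Where the mean of the lower group lies at or under 100, the size of a difference is not exact, and very abundant transcripts may saturate their probes.

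**Figure D1:**
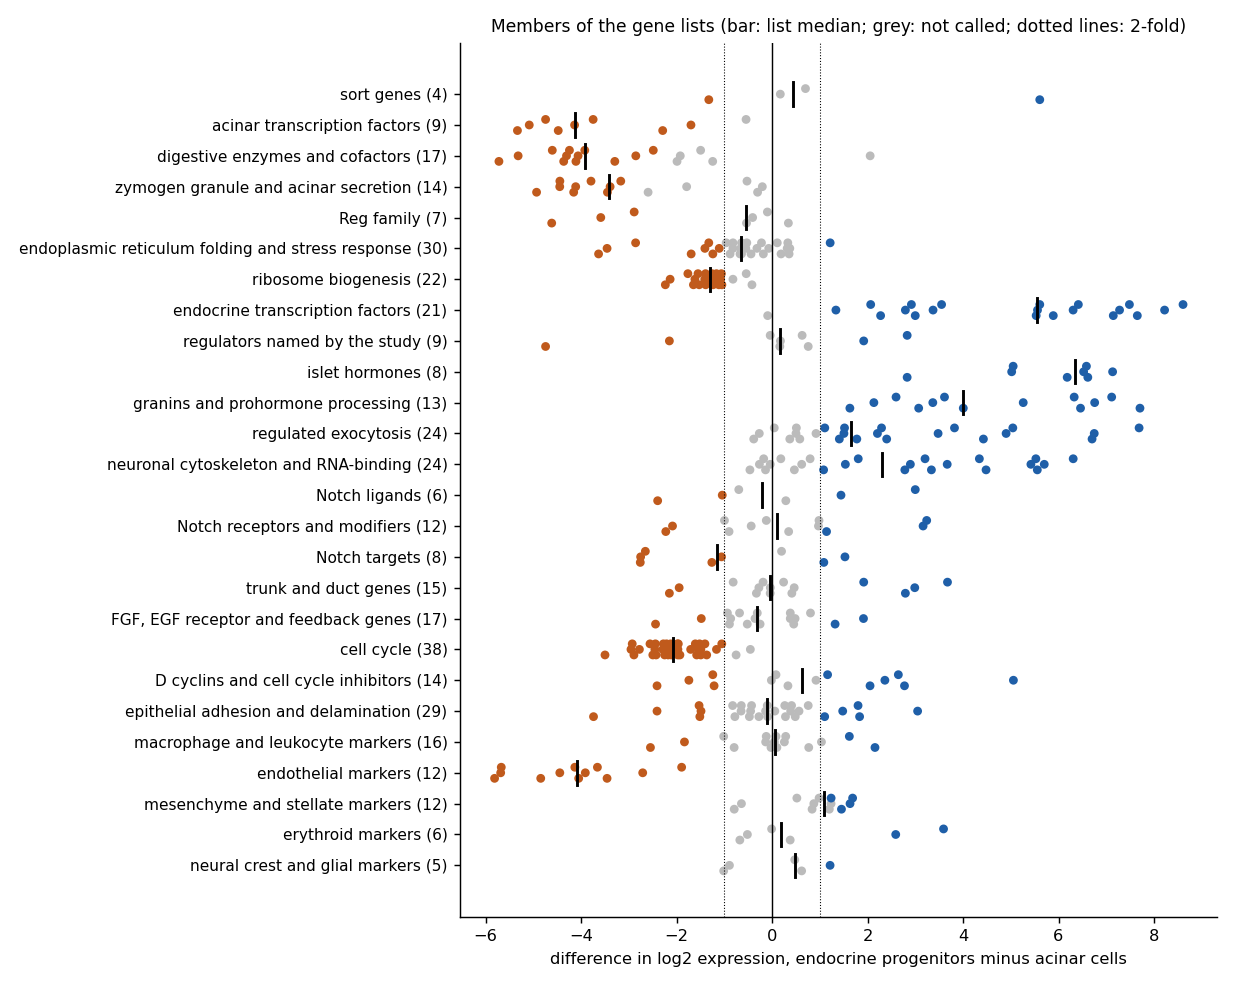
Difference in log2 expression (endocrine progenitors minus acinar cells, x axis) of every tested member of 26 gene lists, each gene by its brightest probe. Orange points were called higher in acinar cells, blue points higher in endocrine progenitors and grey points were not called. Black bars mark list medians and the number of genes stands in brackets. Acinar transcription factors lie at a median of -4.14 and islet hormones at 6.35, while the Notch ligands and receptors lie on both sides of 0.

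The labels were checked against their markers first. Ptf1a measured 12.74, 12.46 and 12.83 in the acinar arrays 1 to 3 and 6.26, 6.81 and 8.95 in the endocrine progenitor arrays 1 to 3. The groups did not overlap, and endocrine progenitor array 3 was the highest of its group. Ptf1a was higher in acinar cells by 5.34 ± 0.53 (SE, adjusted p = 5.50e-11), a 40.4-fold difference. Gfi1 measured 10.68, 10.82 and 10.67 in acinar cells against 5.44, 5.49 and 6.99 in endocrine progenitors, and was higher in acinar cells by 4.75 ± 0.49 (SE, adjusted p = 1.95e-10). Over the 13 populations, acinar cells held the highest mean of both genes. For Ptf1a the next populations were the E11.5 Sox9 progenitors at 10.93 ± 0.20 (SD, n = 4), the E15.5 progenitors at 10.67 ± 1.17 (SD, n = 3) and the Neurog3-null cells at 10.41 ± 0.76 (SD, n = 4). The array values of these 3 populations overlapped. For Gfi1 the next were Neurog3-null cells at 9.14 ± 0.68 (SD, n = 4) and E15.5 progenitors at 8.04 ± 1.33 (SD, n = 3), while E11.5 Sox9 progenitors lay at 5.43 ± 0.24 (SD, n = 4), under 100 on the linear scale. E11.5 Sox9 progenitors thus carried Ptf1a above and Gfi1 below the floor of 100.

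Neurog3 measured 13.34, 13.41 and 13.44 in endocrine progenitors, the highest mean of the 13 populations, with a SD of 0.05 over the 3 arrays. In acinar cells it measured 8.14, 7.42 and 7.82, above the floor of 100 and the ninth highest mean. Itga6, the CD49f gene, measured 13.28, 13.09 and 13.23 in acinar cells and 11.72, 12.01 and 11.89 in endocrine progenitors, in the direction of the gates. Prom1, the CD133 gene, and Cd24a, the CD24 gene, on which both gates were positive, measured 12.39 ± 0.03 (SD, n = 3) in acinar cells and 13.09 ± 0.12 (SD, n = 3) in endocrine progenitors for Prom1, and 13.72 ± 0.01 (SD, n = 3) and 13.89 ± 0.08 (SD, n = 3) for Cd24a.

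**Figure D2:**
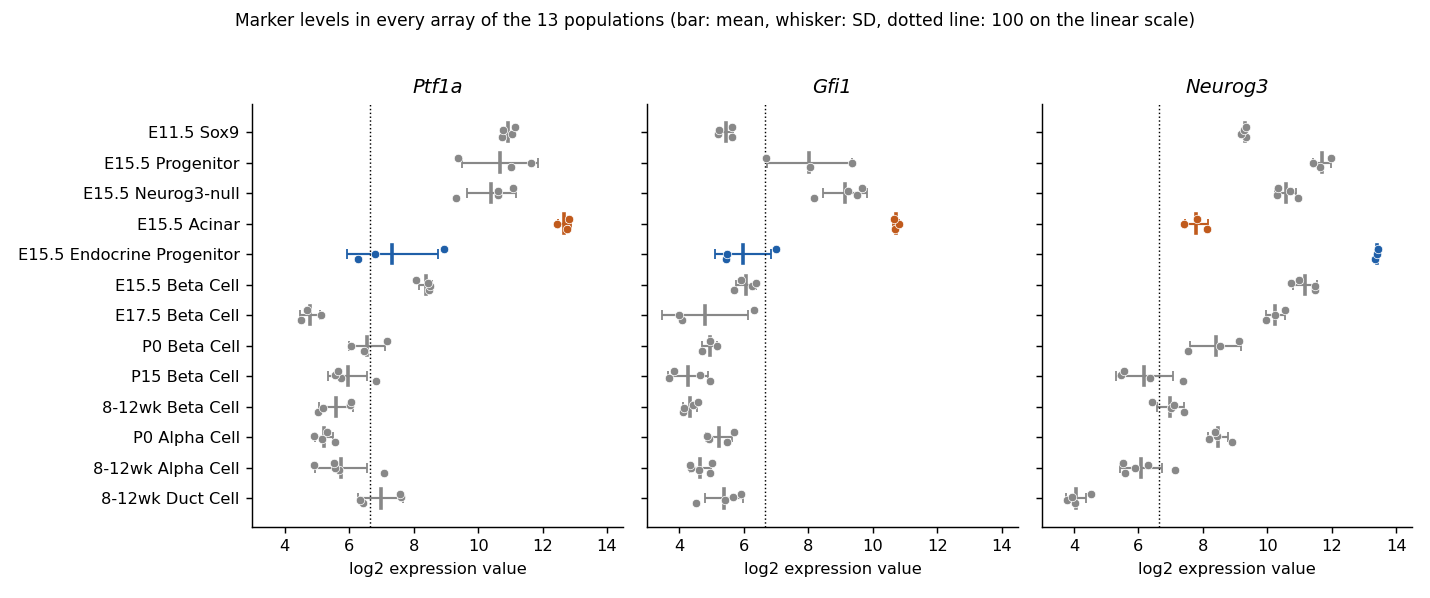
Log2 expression (x axis) of Ptf1a, Gfi1 and Neurog3 in every array of the 13 populations, with points for arrays, a bar for the mean and whiskers for the SD. The dotted line marks 100 on the linear scale. Ptf1a and Gfi1 are highest in acinar cells, at means of 12.68 and 10.72, and Neurog3 is highest in endocrine progenitors, at 13.40.

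Acinar transcription factors, Ptf1a and Gfi1 included, were higher in acinar cells in 8 of 9 tested members, with a median difference of 4.14. Rbpjl measured 12.36, 12.04 and 11.93 in acinar cells and 6.96, 7.33 and 8.60 in endocrine progenitors, and was higher in acinar cells by 4.48 ± 0.53 (SE, adjusted p = 4.64e-09). Bhlha15, also called Mist1, a bHLH factor of secretory cells, differed by 4.14 ± 0.43 (SE, adjusted p = 2.15e-10), with acinar arrays between 12.75 and 12.85. All of these factors had groups that did not overlap, as did 67.0% of all tested genes. The zinc finger factor Gata4 was higher in acinar cells by 3.75 ± 0.32 (SE), the nuclear receptor Nr5a2 by 2.29 ± 0.37 (SE) and Xbp1, a factor of the unfolded protein response, by 1.70 ± 0.18 (SE). Myc, the growth regulator, measured 11.89, 10.79 and 12.09 in acinar cells against 6.18, 5.98 and 7.34 in endocrine progenitors, a difference of 5.09 ± 0.47 (SE, adjusted p = 1.08e-11). Acinar array 2 was the lowest acinar array for Myc and still lay above every endocrine progenitor array. Foxp2 was not called, at 8.76 ± 0.20 (SD, n = 3) in acinar cells and 8.21 ± 0.24 (SD, n = 3) in endocrine progenitors.

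**Figure D3:**
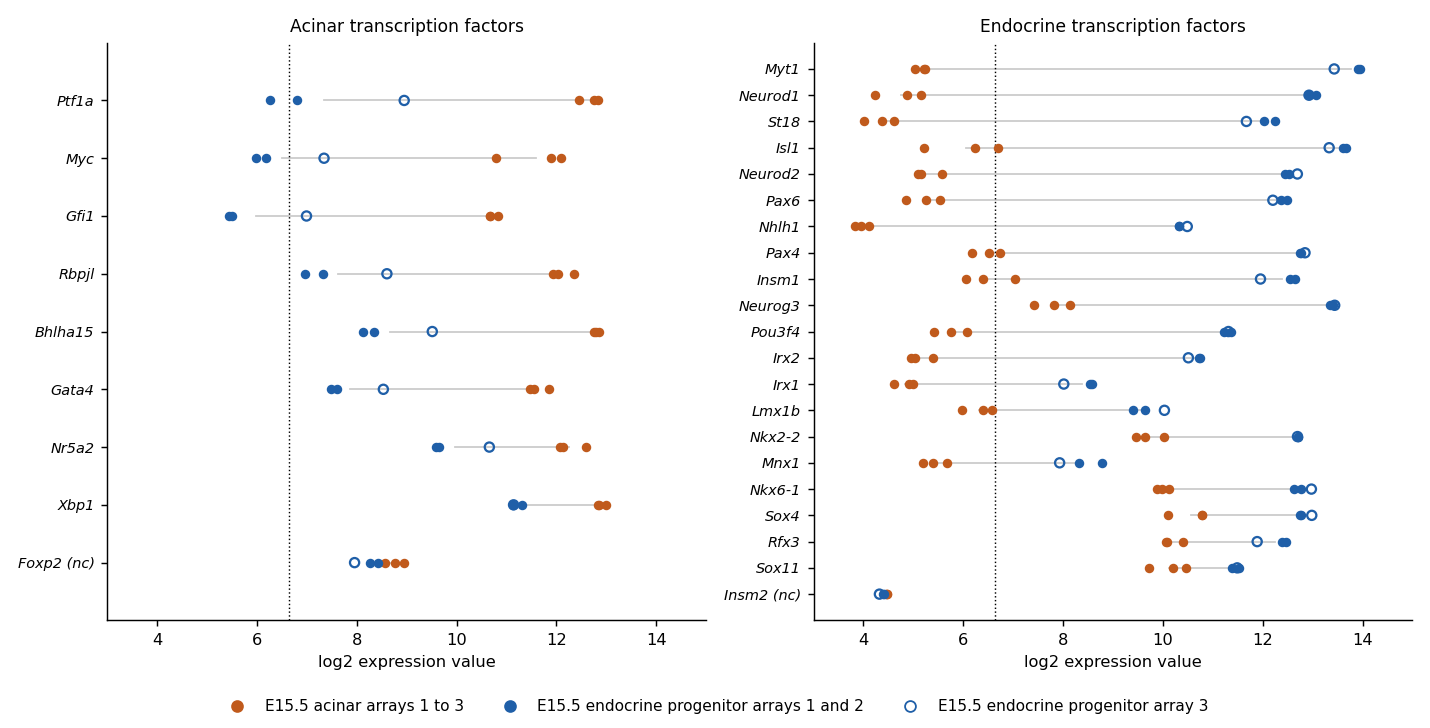
Log2 expression (x axis) of acinar (left) and endocrine (right) transcription factors in each of the 6 arrays. Orange points are the acinar arrays, filled blue points endocrine progenitor arrays 1 and 2, and open circles endocrine progenitor array 3. Grey lines join the group means, the dotted line marks 100 on the linear scale, and (nc) marks a gene that was not called. Array 3 is the highest endocrine progenitor array for 7 of the 9 acinar factors, as for Ptf1a at 8.95 against 6.26 and 6.81.

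Digestive enzymes and their cofactors were higher in acinar cells in 12 of 17 tested members, with a median difference of 3.93. The procarboxypeptidase gene Cpb1 measured 12.38, 12.25 and 12.27 in acinar cells and 4.45, 5.95 and 9.32 in endocrine progenitors, and was higher in acinar cells by 5.72 ± 1.37 (SE, adjusted p = 6.33e-04). The acinar arrays lay close together, while the endocrine progenitor arrays were spread, with array 3 highest. The lipase-related gene Pnliprp2 differed by 5.32 ± 1.30 (SE), the trypsinogen gene Prss3 by 4.61 ± 1.02 (SE), the chymotrypsin gene Ctrc by 4.37 ± 1.09 (SE), the trypsinogen gene Prss2 by 4.31 ± 1.08 (SE) and the elastase gene Cela2a by 4.25 ± 1.10 (SE). Cela2a was not called under the methods' t-test. The 5 members that were not called were Cpa1, Ctrb1, Pnliprp1, Clps and Pla2g1b. In the first 4 the acinar arrays lay between 13.86 and 14.77, near the top of the scale, and all of them lay above the endocrine progenitor arrays. Their endocrine progenitor levels were also high, from 11.24 in array 1 for Cpa1 to 14.22 in array 3 for Ctrb1. Pla2g1b, a secreted phospholipase gene, pointed the other way, at 6.47, 6.73 and 6.16 in acinar cells and 8.58, 8.46 and 8.49 in endocrine progenitors (difference 2.05 ± 0.88 (SE), adjusted p = 0.0522). Its other probe was called higher in endocrine progenitors, and with only the 6 arrays in the fit so was the brightest one. Genes of zymogen granules and acinar secretion were higher in acinar cells in 9 of 14, led by Erp27, an endoplasmic reticulum protein gene, at 4.94 ± 0.99 (SE), Zg16, a zymogen granule protein gene, at 4.45 ± 1.06 (SE), and Pdia2, a pancreatic disulfide isomerase gene, at 4.45 ± 1.17 (SE). Spink1, a trypsin inhibitor gene, differed by 3.80 ± 1.24 (SE, adjusted p = 0.0110) and was not called without endocrine progenitor array 1.

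Enzyme transcripts were higher in endocrine progenitor array 3 than in the other arrays of its group. The mean of the 17 enzyme genes was 12.24 to 12.38 in the acinar arrays and 8.07, 8.80 and 10.50 in endocrine progenitor arrays 1 to 3, while it ran from 9.73 to 11.52 in the E15.5 progenitor arrays. Array 3 was the highest of its group for 15 of these 17 genes and for 7 of the 9 acinar factors, against 55.1% of all tested genes and 82.0% of all genes called higher in acinar cells. It was also the highest for 21 of 22 ribosome biogenesis genes. For endocrine transcription factors it was the highest in 7 of 21. Its part in the results was not tested beyond leaving the array out. Without it, 13 enzymes, 9 granule genes and 8 acinar factors were higher in acinar cells, and the median differences were 4.66, 3.93 and 4.57. Ptf1a then differed by 6.14 ± 0.52 (SE), Gfi1 by 5.26 ± 0.53 (SE) and Cpb1 by 7.10 ± 1.47 (SE).

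**Figure D4:**
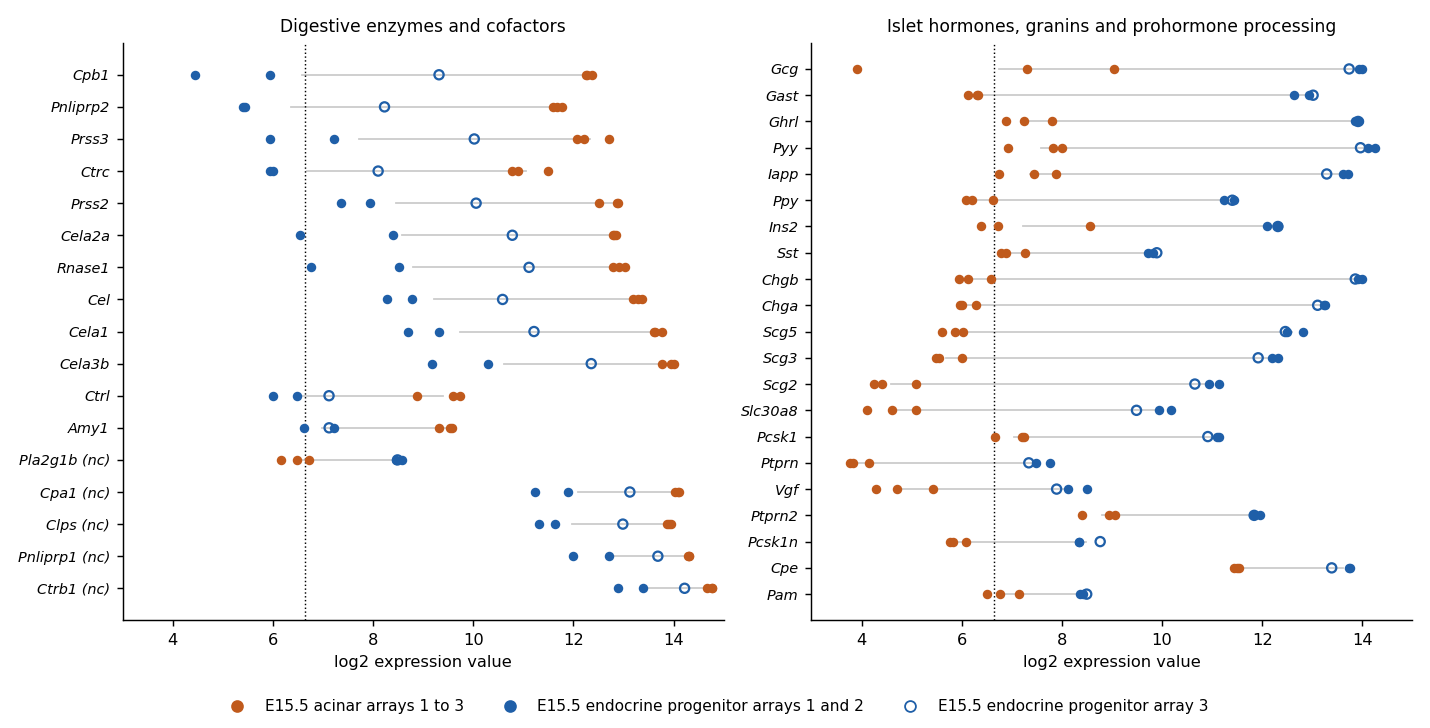
Log2 expression (x axis) of digestive enzymes and cofactors (left) and of islet hormones, granins and prohormone processing genes (right) in each of the 6 arrays, with colours, lines and (nc) as in the plot of transcription factors. The enzyme means of endocrine progenitor arrays 1 to 3 are 8.07, 8.80 and 10.50, and the open circles of array 3 lie between the other endocrine progenitor arrays and the acinar arrays for most enzymes. For all hormones and granins the endocrine progenitor arrays lie above the acinar arrays.

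The Reg family, secreted lectin-like proteins of the pancreas, was higher in acinar cells in 3 of 7 members. Reg1 differed by 4.62 ± 1.10 (SE), Reg3d by 3.59 ± 0.87 (SE) and Reg3g by 2.89 ± 0.72 (SE). In 4 of the 7, among them Reg2 and Reg3b, both groups lay at or under 100. Genes for folding in the endoplasmic reticulum and the response to unfolded protein were higher in acinar cells in 8 of 30, with a median difference of 0.64. Over all tested genes 14.7% were higher in acinar cells. Edem1, which marks misfolded glycoproteins for degradation, measured 12.99, 13.03 and 13.04 in acinar cells and 9.29, 9.31 and 10.09 in endocrine progenitors, a difference of 3.46 ± 0.32 (SE, adjusted p = 1.08e-11). Pdia4 and Sdf2l1, both folding factors, were called higher in acinar cells but varied among the acinar arrays, from 8.75 in array 2 to 12.03 in array 3 for Pdia4 and from 9.89 to 11.70 for Sdf2l1. Pdia4 was not called under the methods' t-test. The 1 member higher in endocrine progenitors was Ddit3, the stress factor CHOP, at 1.22 ± 0.19 (SE), and without endocrine progenitor array 3 it was not called.

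Promoters of the enzyme and endocrine genes were read for the motifs of the factors named above, because PTF1 binds an E-box beside a TGGGAA box and NEUROG3 and NEUROD1 bind E-boxes. Promoter sequences came from RefSeq on GRCm38.p6 and run from 250 bases before to 50 after each start, and a match on either strand was counted. An E-box, CANNTG, stood in 72.3% of all 32851 promoters and TGGGAA in 25.6%. Both with starts at most 30 bases apart stood in 5.96%, and CAGATG, a form of the E-box, in 17.2%. Of the 17 enzyme genes 15 were found, with 16 promoters. TGGGAA stood in 9 of these 16 (56.2%) and the close pair in 4, which belong to Cel, Cpa1, Ctrb1 and Pnliprp1. Of these 4 genes Cel alone was called higher in acinar cells. CAGATG stood in none of the 16. Of the granule genes 8 promoters were found, with TGGGAA in 4, CAGATG in 3 (37.5%) and the close pair in 1, that of Pdia2. Among 8 promoters of acinar transcription factors TGGGAA stood in 3, CAGATG in 2 and the close pair in 1, that of Rbpjl. Among 20 promoters of endocrine transcription factors TGGGAA stood in 4, the close pair in none and CAGATG in 5. Among 11 promoters of hormone genes CAGATG stood in 4 (36.4%), of Gcg, Ghrl and Iapp, and the close pair in 1 (9.09%). Ghrl gave 2 of these 4 promoters, which overlap and share 1 CAGATG site, so that site was counted for both. Among 12 promoters of granin and processing genes CAGATG stood in none and the close pair in 1 (8.33%). Both motifs stood in promoters of genes of both branches. A gene with several starts has several promoters. A match is a description of letters, not a bound site. The stretches below are the 250 bases before the start, 5′ to 3′ on the strand of the gene, with every CANNTG and TGGGAA of either strand in capitals. Rbpjl, Cel and Pdia2 show the close pair in genes higher in acinar cells, and Neurod2 and Gcg show CAGATG in genes higher in endocrine progenitors.
Rbpjl, chr2:164402944-164403193, plus strand: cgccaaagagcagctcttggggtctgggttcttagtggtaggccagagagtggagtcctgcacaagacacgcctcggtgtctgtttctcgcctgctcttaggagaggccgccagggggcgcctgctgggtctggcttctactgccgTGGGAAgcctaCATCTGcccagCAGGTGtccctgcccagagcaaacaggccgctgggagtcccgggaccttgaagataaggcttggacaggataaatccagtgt
Cel, chr2:28563404-28563653, minus strand: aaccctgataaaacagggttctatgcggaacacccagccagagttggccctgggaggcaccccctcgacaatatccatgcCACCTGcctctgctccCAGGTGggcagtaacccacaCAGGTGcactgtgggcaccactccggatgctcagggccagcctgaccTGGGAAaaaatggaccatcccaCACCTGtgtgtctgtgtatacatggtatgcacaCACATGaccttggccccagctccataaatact
Pdia2, chr17:26199088-26199337, minus strand: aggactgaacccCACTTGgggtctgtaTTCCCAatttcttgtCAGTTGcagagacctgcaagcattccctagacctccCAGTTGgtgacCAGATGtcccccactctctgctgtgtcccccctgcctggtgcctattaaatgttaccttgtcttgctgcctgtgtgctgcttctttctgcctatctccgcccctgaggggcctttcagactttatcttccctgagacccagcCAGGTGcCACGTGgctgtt
Neurod2, chr11:98329646-98329895, minus strand: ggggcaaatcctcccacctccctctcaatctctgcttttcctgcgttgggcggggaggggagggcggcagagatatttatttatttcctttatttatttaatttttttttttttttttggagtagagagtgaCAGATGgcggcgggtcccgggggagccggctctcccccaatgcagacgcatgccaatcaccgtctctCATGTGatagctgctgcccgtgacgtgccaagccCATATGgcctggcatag
Gcg, chr2:62483654-62483903, minus strand: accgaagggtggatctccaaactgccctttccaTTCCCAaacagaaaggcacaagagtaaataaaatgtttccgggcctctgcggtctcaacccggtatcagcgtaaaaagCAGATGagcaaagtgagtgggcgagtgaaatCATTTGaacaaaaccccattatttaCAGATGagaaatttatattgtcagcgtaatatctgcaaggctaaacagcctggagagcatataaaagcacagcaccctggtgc
In the Rbpjl stretch a TGGGAA is followed closely by CATCTG, which is CAGATG on the other strand, and by CAGGTG. In the Gcg stretch CAGATG stands in 2 places.

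Endocrine transcription factors were higher in endocrine progenitors in 19 of 20 tested members besides Neurog3, with a median difference of 5.55. In 14 of the 19 the acinar mean lay at or under 100, although single acinar arrays of Insm1, Isl1 and Pax4 lay above it. Myt1, a zinc finger factor, had the largest difference of all genes on the endocrine side, at 13.95, 13.91 and 13.43 in endocrine progenitors and 5.23, 5.03 and 5.22 in acinar cells (difference 8.61 ± 0.28 (SE), adjusted p = 5.62e-25). Neurod1, the bHLH factor downstream of Neurog3, measured 12.93, 13.07 and 12.93 against 4.24, 4.88 and 5.14 (difference 8.22 ± 0.32 (SE), adjusted p = 6.63e-23). Its relative Neurod2 differed by 7.28 ± 0.53 (SE) and the bHLH factor Nhlh1 by 6.41 ± 0.27 (SE). The arrays of these genes stood apart without overlap, as did those of 67.0% of all tested genes. The homeodomain factors Isl1 and Pax6 differed by 7.48 ± 0.46 (SE) and 7.15 ± 0.25 (SE). Sizes depended on the probe: the other Pax6 probes differed by 0.51, not called, to 4.64, and the other Myt1 probe by 3.69. Pax4, a factor of the beta and delta lineage, measured 12.74, 12.77 and 12.85 in endocrine progenitors against 6.73, 6.18 and 6.52 in acinar cells, and Insm1, a zinc finger repressor, differed by 5.89 ± 0.28 (SE). St18 differed by 7.65 ± 0.45 (SE), Pou3f4 by 5.56 ± 0.28 (SE), Irx2 by 5.53 ± 0.45 (SE), Irx1 by 3.55 ± 0.31 (SE), Lmx1b by 3.37 ± 0.22 (SE) and Mnx1 by 2.92 ± 0.30 (SE).

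A smaller set of endocrine factors was present in both branches at different levels. Nkx2-2 measured 12.71, 12.71 and 12.70 in endocrine progenitors and 9.64, 9.46 and 10.03 in acinar cells (difference 3.00 ± 0.34 (SE)). Nkx6-1 differed by 2.79 ± 0.21 (SE), Sox4 by 2.27 ± 0.33 (SE), Rfx3, a regulator of cilia genes, by 2.06 ± 0.25 (SE) and Sox11 by 1.34 ± 0.37 (SE, adjusted p = 0.0026), all with acinar means above 100. Insm2 was not called and lay under 100 in both groups. Listed genes without a probe that carries their symbol alone were not analysed here.

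Islet hormone genes were higher in endocrine progenitors in all 8 tested members, by 2.83 to 7.13. Gcg, the glucagon gene, measured 13.93, 13.99 and 13.74 in endocrine progenitors and 7.30, 9.04 and 3.91 in acinar cells (difference 7.13 ± 0.67 (SE), adjusted p = 1.27e-11). The acinar arrays were spread for Gcg, with array 2 highest and array 3 lowest. Ghrl, the ghrelin gene of epsilon cells, measured 13.85, 13.92 and 13.92 in endocrine progenitors, and Ins2, an insulin gene, 12.31, 12.09 and 12.31. For Ins2 acinar array 3 was the highest acinar array, at 8.56 against 6.72 and 6.38. The gastrin gene Gast differed by 6.61 ± 0.34 (SE), the peptide YY gene Pyy by 6.53 ± 0.55 (SE), the amylin gene Iapp by 6.18 ± 0.33 (SE), the pancreatic polypeptide gene Ppy by 5.05 ± 0.55 (SE) and the somatostatin gene Sst by 2.83 ± 0.24 (SE). Beside these, E15.5 beta cells measured 14.32 ± 0.16 (SD, n = 4) for Ins2, above the endocrine progenitors, and 12.74 ± 0.24 (SD, n = 4) for Ghrl, below them. The E15.5 beta cell means of Gcg, Pyy, Iapp, Ppy and Sst were also higher, and that of Gast was lower. Some lay close together, at 13.89 in endocrine progenitors and 14.08 in E15.5 beta cells for Gcg, 14.11 and 14.34 for Pyy, and 12.86 and 12.71 for Gast. These differences were not tested.

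Granins and prohormone processing genes were higher in endocrine progenitors in all 13 tested members, with a median difference of 4.00. Chgb, a granin that packs dense-core granules, measured 14.00, 13.92 and 13.86 in endocrine progenitors and 5.95, 6.58 and 6.13 in acinar cells (difference 7.71 ± 0.40 (SE)). Chga differed by 7.11 ± 0.27 (SE), Scg5 by 6.76 ± 0.36 (SE), Scg3 by 6.46 ± 0.24 (SE), Scg2 by 6.33 ± 0.30 (SE) and the zinc transporter gene Slc30a8 by 5.26 ± 0.20 (SE). Genes of regulated exocytosis were higher in endocrine progenitors in 16 of 24 and in acinar cells in none. Cadps, which primes dense-core granules, measured 11.60, 11.70 and 11.17 in endocrine progenitors against 4.18, 3.70 and 3.54 in acinar cells (difference 7.69 ± 0.26 (SE), adjusted p = 1.38e-24). The SNARE gene Snap25 differed by 6.75 ± 0.32 (SE), the synaptotagmins Syt13 and Syt7 by 6.70 ± 0.18 (SE) and 5.04 ± 0.24 (SE), the complexin Cplx2 by 4.90 ± 0.29 (SE) and Rims2 by 4.43 ± 0.22 (SE). Neuronal cytoskeleton and RNA-binding genes followed the same direction in 15 of 24 members and the opposite in none. The neuronal tubulin Tubb3 differed by 6.31 ± 0.26 (SE), the splicing regulator Celf3 by 5.70 ± 0.32 (SE), Dpysl4 by 5.56 ± 0.34 (SE), Elavl4 by 5.52 ± 0.43 (SE), Nefm by 5.42 ± 0.24 (SE) and Dpysl5 by 4.48 ± 0.31 (SE). The acinar mean lay at or under 100 in 12 of these 15.

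Among 9 tested regulators that the study followed or that mark both branches, 2 were higher in each group. Of all tested genes 14.7% were higher in acinar cells and 15.3% in endocrine progenitors. Runx1t1, a corepressor, measured 13.16, 13.07 and 12.64 in endocrine progenitors and 9.68, 10.29 and 10.40 in acinar cells (difference 2.83 ± 0.41 (SE)), and Glis3, a zinc finger factor, differed by 1.92 ± 0.18 (SE). Onecut1, a factor of ducts and early progenitors, measured 9.99, 10.09 and 10.52 in acinar cells and 7.77, 7.98 and 8.38 in endocrine progenitors, and was higher in acinar cells by 2.15 ± 0.30 (SE). The fourth was Gfi1. Pdx1, which all pancreatic epithelium uses early, was not called, at 11.34 ± 0.09 (SD, n = 3) in acinar cells and 11.51 ± 0.10 (SD, n = 3) in endocrine progenitors. Sox9 was not called either, at 11.51 ± 0.12 (SD, n = 3) and 11.47 ± 0.13 (SD, n = 3), with a difference of -0.04 ± 0.29 (SE). Bcl11a, Prdm16 and Snai2 differed by 0.16 ± 0.33, 0.63 ± 0.30 and 0.76 ± 0.30 (SE) and were not called.

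Notch ligands, receptors and modifiers were called in both directions. Of the 12 receptors and modifiers, 2 were higher in acinar cells and 3 in endocrine progenitors, against 14.7% and 15.3% of all tested genes. Among 6 ligands, Jag1 was higher in acinar cells, at 11.75, 11.66 and 11.82 against 9.12, 9.34 and 9.56 (difference 2.40 ± 0.25 (SE), adjusted p = 1.26e-10), and Dll1 by 1.05 ± 0.36 (SE, adjusted p = 0.0144). Dll1 was not called under the methods' t-test or without acinar array 1, acinar array 3 or endocrine progenitor array 2. Dll3, a ligand that does not activate the receptor in trans, was higher in endocrine progenitors by 3.00 ± 0.23 (SE) and Dll4 by 1.44 ± 0.17 (SE), while Jag2 and Dlk1 were not called. Among 12 receptors and modifiers, Notch1 was higher in acinar cells, at 12.00, 12.02 and 11.92 against 9.61, 9.52 and 10.12 (difference 2.23 ± 0.19 (SE)), and so was Notch4, a receptor of endothelium, by 2.09 ± 0.38 (SE). The glycosyltransferase Mfng, which modifies the receptor, measured 10.72, 10.78 and 10.99 in endocrine progenitors against 7.39, 8.17 and 7.45 in acinar cells (difference 3.16 ± 0.26 (SE)). The Notch inhibitor Numbl differed by 3.24 ± 0.31 (SE) and Notch3 by 1.14 ± 0.38 (SE, adjusted p = 0.0116), and Notch3 was not called without acinar array 3. Several modifiers stood at the 2-fold line. Lfng was higher in acinar cells by 1.00 ± 0.36 (SE), just under the threshold. The nuclear mediators Rbpj and Maml1 were higher in endocrine progenitors by 0.98 ± 0.16 (SE) and 0.97 ± 0.16 (SE). Of the 3 Rbpj probes, 1 was called higher in endocrine progenitors. The number of receptors and modifiers higher in acinar cells was 4 without endocrine progenitor array 3 or without acinar array 3, against 2 with all arrays, and the number higher in endocrine progenitors was 5 without endocrine progenitor array 1, against 3.

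Among 8 Notch targets and HES relatives, 5 were higher in acinar cells and 2 in endocrine progenitors. Hes1 measured 8.70, 8.91 and 8.72 in acinar cells and 7.24, 7.37 and 7.92 in endocrine progenitors (difference 1.26 ± 0.26 (SE), adjusted p = 1.16e-04), and E15.5 progenitors lay above both at 10.29 ± 0.14 (SD, n = 3). Nrarp, a feedback inhibitor of Notch, was higher in acinar cells by 2.76 ± 0.46 (SE), Heyl by 2.66 ± 0.28 (SE), Hes7 by 2.76 ± 0.26 (SE) and Hey2 by 1.06 ± 0.35 (SE). Hey2 lay under 100 in both groups and was not called under the methods' t-test or without acinar array 2, endocrine progenitor array 1 or endocrine progenitor array 2. Hes6, a HES relative that opposes HES1 and is not counted on as a target, was higher in endocrine progenitors. It measured 13.42, 13.46 and 13.42 against 11.98, 11.90 and 11.85 (difference 1.53 ± 0.14 (SE)). Hey1 was higher in endocrine progenitors by 1.08 ± 0.39 (SE, adjusted p = 0.0224), and was not called without acinar array 1 or endocrine progenitor array 3, or with the arrays normalized again by quantiles or centred on their medians. Endothelial markers, given with the other cell types below, were also higher in acinar cells, and their part in the values of Notch4, Heyl and Hey2 was not tested.

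Trunk and duct genes were higher in endocrine progenitors in 4 of 15 and in acinar cells in 2. Over all tested genes these shares were 15.3% and 14.7%. Krt7, a duct keratin, measured 13.32, 13.31 and 13.33 in endocrine progenitors and 10.57, 10.07 and 10.36 in acinar cells (difference 2.99 ± 0.16 (SE), adjusted p = 2.00e-18). Onecut2 differed by 3.67 ± 0.45 (SE), in the opposite direction to its relative Onecut1. The carbonic anhydrase Car2 was higher in acinar cells by 1.95 ± 0.49 (SE), with 9.44 ± 0.24 (SD, n = 3) in E15.5 progenitors above both. Among 17 FGF and EGF pathway genes, 2 were higher in each group, a share no larger than among all tested genes. Egfr was higher in acinar cells by 2.44 ± 0.35 (SE) and Spred2, an inhibitor of the pathway, by 1.48 ± 0.44 (SE), while Fgfr3 and Fgfr4 were higher in endocrine progenitors by 1.91 ± 0.21 (SE) and 1.32 ± 0.24 (SE). None of these 4 was called when a call needed a majority of a gene's probes called in that direction. Erbb3 and Spry1 differed by -0.89 ± 0.22 (SE) and -0.94 ± 0.37 (SE), endocrine progenitors minus acinar cells, and were not called.

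Cell cycle genes were higher in acinar cells in 36 of 38 and in endocrine progenitors in none, with a median difference of 2.08. Cdc6, which licenses replication origins, measured 10.41, 10.67 and 10.51 in acinar cells and 6.51, 6.82 and 7.75 in endocrine progenitors (difference 3.50 ± 0.31 (SE), adjusted p = 2.37e-12). The mitotic kinase Aurkb differed by 2.96 ± 0.28 (SE), the mitotic motor Kif11 by 2.93 ± 0.39 (SE), the spindle checkpoint kinases Bub1 and Bub1b by 2.90 ± 0.35 (SE) and 2.78 ± 0.21 (SE) and the kinase Plk1 by 2.56 ± 0.25 (SE). No acinar array overlapped an endocrine progenitor array for any of the 38, where 67.0% of all tested genes showed no overlap. All 36 lower means still lay above 100. The 2 that were not called were the replication helicase genes Mcm2 and Mcm4, which differed in the same direction by 0.76 ± 0.27 (SE) and 0.46 ± 0.16 (SE). Endocrine progenitor array 3 was the highest of its group for 35 of the 38, and without it 35 were called higher in acinar cells. E15.5 progenitors lay nearer to acinar cells than to endocrine progenitors for all 38.

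D cyclins and cell cycle inhibitors moved in both directions, 4 higher in acinar cells and 6 higher in endocrine progenitors of 14. The shares over all tested genes were 14.7% and 15.3%. Gadd45a, a growth arrest gene, measured 13.26, 13.29 and 13.51 in endocrine progenitors and 8.37, 8.07 and 8.47 in acinar cells (difference 5.05 ± 0.56 (SE), adjusted p = 7.28e-10). The antiproliferative Btg2 differed by 2.77 ± 0.47 (SE), the inhibitor Cdkn2b by 2.64 ± 0.22 (SE), the inhibitor Cdkn1a, which encodes p21, by 2.36 ± 0.19 (SE) and Gadd45g by 2.05 ± 0.28 (SE). The kinase Cdk6 was higher in acinar cells by 2.41 ± 0.33 (SE). Ribosome biogenesis genes were higher in acinar cells in 19 of 22, with a median difference of 1.30. Dkc1, a subunit of the complex that modifies ribosomal RNA, measured 12.81, 12.32 and 12.49 in acinar cells and 10.12, 9.96 and 10.82 in endocrine progenitors (difference 2.24 ± 0.33 (SE)). Polr1b and Polr1a, subunits of RNA polymerase I, differed by 2.14 ± 0.27 (SE) and 1.65 ± 0.29 (SE), and Pes1, Heatr1 and Gnl3 by 1.77 ± 0.20, 1.62 ± 0.21 and 1.55 ± 0.13 (SE).

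Of 29 adhesion and delamination genes 5 were higher in each group, a share close to the 14.7% and 15.3% of all tested genes. Cldn10, a tight junction claudin, measured 12.86 ± 0.13 (SD, n = 3) in acinar cells and 8.43, 8.74 and 10.19 in endocrine progenitors (difference 3.74 ± 0.50 (SE), adjusted p = 5.93e-08). The laminin receptor subunit Itgb4, the partner of CD49f in hemidesmosomes, was higher in acinar cells by 2.41 ± 0.27 (SE) and the collagen receptor subunit Itga2 by 1.53 ± 0.18 (SE). Cdh2, N-cadherin, measured 10.60, 10.25 and 9.62 in endocrine progenitors and 6.50, 7.71 and 7.12 in acinar cells (difference 3.05 ± 0.28 (SE), adjusted p = 5.31e-12). The polarity gene Pard3 differed by 1.83 ± 0.17 (SE) and Cldn4 by 1.80 ± 0.40 (SE), both higher in endocrine progenitors.

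The genes with the largest differences on the acinar side were partly endothelial. Of the 12 largest, 3 were on the endothelial list and 2 on the acinar lists, and Pnliprp2, the next gene, missed them narrowly. These counts cover listed genes only. Aplnr, Fabp4, Gimap4, Ctla2a and Cav1 were on neither, but shared 2 traits with the listed Emcn, Tek and Plvap. They were highest in acinar array 2, and their E15.5 progenitor means lay under 100, from 3.49 to 5.76. The unlisted 1810010K12Rik and Tinag lay above 100 in E15.5 progenitors, at 7.11 and 9.77. The order depends on endocrine progenitor array 3: without it Cpb1 at 7.10, Pnliprp2 at 6.26 and Ptf1a at 6.14 lay above Emcn at 5.78, Gimap4 at 5.65, Tek at 5.64 and Cav1 at 4.76. Aplnr, the apelin receptor, led at 12.16, 12.47 and 12.19 in acinar cells and 3.20, 3.51 and 3.45 in endocrine progenitors (difference 8.89 ± 0.60 (SE)), with 3.49 ± 0.16 (SD, n = 3) in E15.5 progenitors. It was followed by Fabp4, a fatty acid binding protein, at 7.00 ± 0.58 (SE), Emcn at 5.82 ± 0.60 (SE), Cpb1, Gimap4 at 5.69 ± 0.56 (SE), Tek, an angiopoietin receptor, at 5.69 ± 0.56 (SE), Plvap at 5.68 ± 0.59 (SE), Ctla2a at 5.62 ± 0.54 (SE), 1810010K12Rik at 5.49 ± 0.58 (SE), Ptf1a, Tinag at 5.33 ± 0.55 (SE) and Cav1, the caveolin gene, at 5.32 ± 0.55 (SE). All 12 endothelial markers were higher in acinar cells, by 1.90 to 5.82. Like 67.0% of all tested genes, these markers had groups that did not overlap. Their mean per array was 8.57, 9.67 and 9.15 in acinar cells, 4.85 to 5.00 in endocrine progenitors and 4.98 to 5.46 in E15.5 progenitors. Acinar array 2 was the highest acinar array for this list, and its enzyme mean of 12.28 lay between those of the other acinar arrays. The part of endothelial transcripts in the acinar result was not tested.

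**Figure D5:**
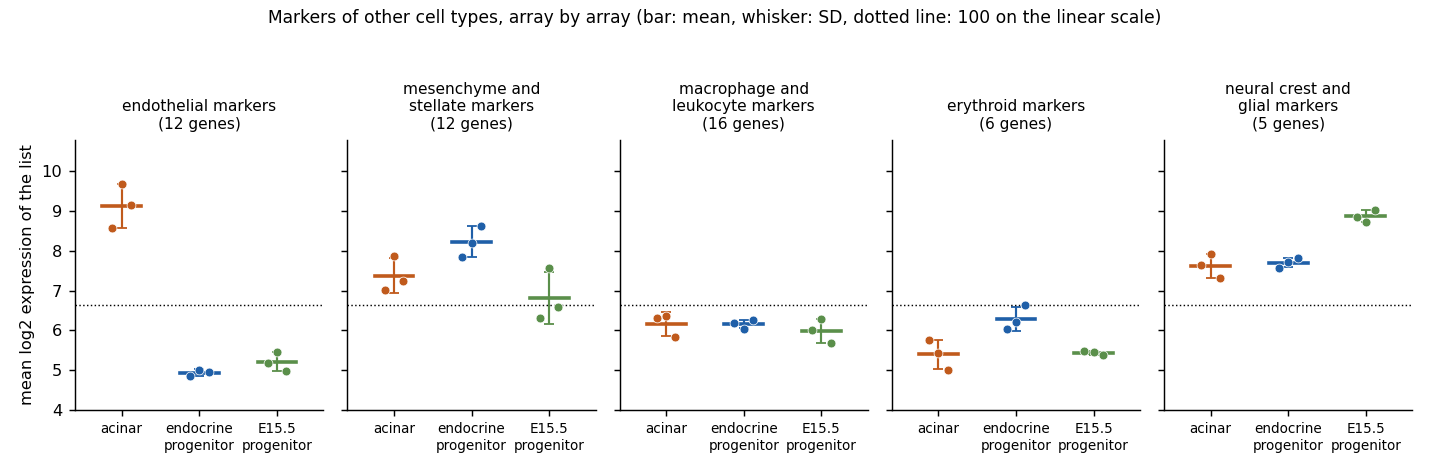
Mean log2 expression (y axis) of 5 marker lists in each array of acinar cells, endocrine progenitors and E15.5 progenitors, with points for arrays, a bar for the mean and whiskers for the SD. The dotted line marks 100 on the linear scale. Endothelial markers average 8.57 to 9.67 in the acinar arrays and 4.85 to 5.00 in the endocrine progenitor arrays.

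Lists for the remaining cell types had smaller median differences. Macrophage and leukocyte markers averaged 5.82 to 6.36 in acinar cells and 6.03 to 6.25 in endocrine progenitors, under 100 in all arrays. Of 16 markers, 2 were higher in each group, a share no larger than among all tested genes. They were C1qa and Cd14 in acinar cells and Laptm5 and Csf1r in endocrine progenitors. Single members lay above 100, such as C1qa at a mean of 9.95 in acinar cells and Laptm5 at 8.97 in endocrine progenitors. Csf1r was not called without any single acinar array, endocrine progenitor array 1 or endocrine progenitor array 3. Ptprc, the CD45 gene on which cells were excluded in the sort, lay between 3.27 and 3.59 in the 6 arrays. Mesenchyme and stellate markers averaged 7.03 to 7.86 in acinar cells and 7.85 to 8.63 in endocrine progenitors. Col1a1, Col1a2, Pdgfra and Lum of 12 were higher in endocrine progenitors, by 1.69 ± 0.60, 1.63 ± 0.53, 1.45 ± 0.37 and 1.24 ± 0.36 (SE). Of all tested genes 15.3% were higher in endocrine progenitors. Without acinar array 1 neither Col1a1 nor Col1a2 was called, and without endocrine progenitor array 2 Col1a1 was not. Endocrine progenitor array 3 was the highest of its group for all 12. The sort also excluded cells with Ter119, an erythroid surface marker. Of 6 erythroid genes, Slc4a1 and Epb42 were higher in endocrine progenitors, by 3.59 ± 0.54 (SE) and 2.59 ± 0.19 (SE), with Epb42 at 6.31, 6.66 and 7.74 in endocrine progenitors and 4.40, 4.28 and 4.26 in acinar cells. Of 5 neural crest and glial genes, Sox10 alone was called, at 1.21 ± 0.43 (SE) higher in endocrine progenitors. Its groups overlapped, and it was not called without acinar array 1 or 3 or endocrine progenitor array 2 or 3. Their part in the endocrine and neuronal results was not tested.

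The 12 genes with the largest differences on the endocrine side held no marker of those other cell types. They were Myt1, Baiap3, a regulator of dense-core granule exocytosis, at 8.34 ± 0.28 (SE), Neurod1, the potassium channel gene Kcnma1 at 8.12 ± 0.29 (SE), Dner, a transmembrane Notch-binding protein, at 7.87 ± 0.33 (SE), C130021I20Rik at 7.85 ± 0.34 (SE), Disp2 at 7.82 ± 0.38 (SE), the ubiquitin ligase Trim9 at 7.81 ± 0.38 (SE), the LIM homeodomain factor Lhx1 at 7.79 ± 0.38 (SE), Vwa5b2 at 7.77 ± 0.24 (SE), Sphkap, an anchor of protein kinase A, at 7.72 ± 0.24 (SE) and Chgb. All 12 had acinar means at or under 100, so their differences are not exact in size. Kcnma1 measured 11.47, 11.42 and 11.46 in endocrine progenitors and 3.44, 3.74 and 2.83 in acinar cells, and Lhx1 12.09, 12.15 and 11.54 against 4.09, 4.34 and 3.99. The endocrine progenitor arrays of both genes lay far above every acinar array.

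E15.5 progenitors, sorted by their own gate from the same stage, were set beside both branches as values, without a test. Of the 2223 genes higher in endocrine progenitors, their mean lay nearer to acinar cells for 1595 (71.7%), and of the 2125 higher in acinar cells it lay nearer to acinar cells for 1454 (68.4%). Over all tested genes that share was 61.2%. For islet hormones (8 of 8), granins and processing genes (13 of 13) and exocytosis genes (22 of 24) E15.5 progenitors lay nearer to acinar cells, as they did for cell cycle genes (38 of 38) and ribosome biogenesis genes (20 of 22). For acinar transcription factors they lay nearer to acinar cells in 3 of 9 and nearer to endocrine progenitors in 6. The endothelial markers lay nearer to endocrine progenitors in all 12. Ptf1a was intermediate at 10.67 ± 1.17 (SD, n = 3), Myt1 at 9.36 ± 0.65 (SD, n = 3) and Neurog3 at 11.68 ± 0.28 (SD, n = 3).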

How the data were processed

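RNA of sorted cells was amplified, labelled with biotin and hybridised to Affymetrix arrays of the mouse genome, and the authors deposited 1 table of 48 arrays in log2 units, normalized by RMA (R 2.11.1). RMA shares its quantiles over all arrays, so a shift in total RNA per cell is not seen. The deposited log2 values were tested with limma 3.58.1 in R 4.3.3, with 13 group means and all 48 arrays in one fit (35 residual degrees of freedom), over probes above 100 on the linear scale in at least 1 array. P-values were adjusted by the Benjamini-Hochberg method. A call needed an adjusted p under 0.05 and a log2 difference of at least 1. Of 45101 probes, 34958 carried 1 gene symbol, 932 several and 9211 none in the annotation used, and probes with several were not named. Each gene was represented by its brightest tested probe over all arrays, without regard to group. The labels call the arrays separate samples, and the paper speaks of biological replicates. The methods describe pooled pancreata, counted for each endocrine progenitor replicate, so the spread between those arrays is between pools, not single embryos. No such count is given for the acinar replicates, and how their pools were divided is not stated. In this fit each SE and p-value rested on the spread within all 13 groups, not on that of the compared groups alone. For Reg2 the SD was 0.11 in acinar cells and 0.20 in endocrine progenitors, while the SE was 1.43. For Gcg the SD was 2.61 in acinar cells and 0.13 in endocrine progenitors, while the SE was 0.67. The 3 arrays per group limit the precision. No level was compared between different probes.

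Every tested member of the lists of transcription factors, hormones, sort genes, regulators and Notch genes could be named, as could the 6 members with the largest differences of each other list and the 12 genes with the largest differences in each direction. Members of a count of 5 or fewer outside that rule were named after their values were seen. The genes and lists were chosen with earlier results of these data known. The replicate numbers were checked for pairing: the deviations of same-numbered arrays correlated at -0.11, -0.13 and -0.24, so the numbers were not taken to pair the samples. Alternatives were other fits, normalizations, filters and probe summaries, the methods' t-test, and leaving out each array. The mean over probes averaged the differences of a gene's probes. No averaged value was tested there, and a call needed a majority of the probes called in that direction. The fit was tested on simulated data. Promoters were taken from RefSeq tables on GRCm38.p6.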

Additional observations from a re-analysis of the deposited data

How the results depend on the processing

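Of 8568 called probes in the main analysis, the alternatives that kept the 2-fold threshold gave 7392 to 9212, and leaving out single arrays 8125 to 9021. With no threshold on size 14991 probes passed, 7385 higher in acinar cells and 7606 higher in endocrine progenitors. With the replicate number as a block 8668 probes were called, and no named gene lost its call under the block. That block rests on numbers that did not pair the arrays. None of the 159 named genes called changed direction under an alternative, while Bcl11a, not called at 0.16, stood at -0.32 as the mean over its probes. Of the 159, 10 lost the call under the mean over probes, where a call needed a majority of probes called. The methods' t-test cost 7, and leaving out single arrays 2 to 6. The list counts that moved were small. The count of digestive enzymes higher in endocrine progenitors went from 0 to 1 with the 6 arrays alone, with the replicate block, with array weights, with the filter of above 100 in 3 arrays and under the methods' t-test, and stayed at 0 without single arrays. For endoplasmic reticulum genes higher in endocrine progenitors, 1 became 0 with array weights and with the mean over probes (0 to 1 without single arrays). Notch ligands higher in acinar cells went from 2 to 1 under the methods' t-test (1 to 2 without single arrays). Notch receptors and modifiers higher in acinar cells went from 2 to 4 with arrays centred (2 to 4 without single arrays), and those higher in endocrine progenitors ran from 3 to 5 without single arrays. Notch targets and HES relatives higher in endocrine progenitors went from 2 to 1 when arrays were normalized again or centred (1 to 2 without single arrays). FGF and EGF pathway genes went from 2 in each direction to 0 in both with the mean over probes, and without single arrays from 2 to 3 in acinar cells and 2 in endocrine progenitors. Macrophage markers higher in endocrine progenitors went from 2 to 1 when arrays were normalized again or centred, under the filter of 3 arrays and with the mean over probes (1 to 2 without single arrays). Mesenchyme markers went from 4 to 2 under the filter, the methods' t-test and the mean over probes (2 to 6 without single arrays). Neural crest markers higher in acinar cells went from 0 to 1 with array weights, and those higher in endocrine progenitors from 1 to 0 under the methods' t-test and the mean over probes (0 to 1 for both without single arrays). The cause was not tested. Signal at or under 100 in acinar cells limits the size of the difference for 14 of the 19 endocrine transcription factors called.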
